A study of Mus musculus with 4 samples.

Results

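Lysosomes are acidic organelles in which macrophages break down what they engulf, from dead tumor cells to their own membranes. A set of 45 genes of this organelle was examined here in tumor-associated macrophages (TAMs) of mice, which had been sorted as CD45+CD11b+F4/80+ cells out of B16-F10 melanomas grown under the skin. The set was a fixed list of symbols, matched by Entrez gene identifier, and covers 8 membrane proteins and transporters, 13 lipid hydrolases and their activators, 10 hydrolases of sugar chains, 4 further luminal proteins, 2 transcription factors and 8 proton pump genes. Of the 16739 genes with a value in any library, these are 45, and all 45 were measured in each of the 4 libraries.

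There were 2 libraries from WT mice and 2 from mice labelled Trim24-/-, all on the C57BL/6 strain and 6 to 8 weeks old when B16-F10 melanoma cells were injected into the abdomen, with the sort on day 16 by the labels. The mutants were a cross of Trim24 floxed mice with LysM-Cre mice, so that the recombinase is driven by the lysozyme M gene of myeloid cells and, by design, the stroma and lymphocytes of the host keep Trim24. WT littermates served as controls. No source used here says whether the WT mice carried Cre or whether a library pools several mice. Replicates are taken here from the sample labels alone, so p-values measure the spread between these samples, which may be technical.

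Expected counts, the read numbers that RSEM assigns to each gene, summed to 4476122 to 5172407 per library. The least covered of the 45 genes still had 50 to 60 counts in each library, far above the floor of 3 counts per library, and such floors cover counting error only. Trim24 itself was sparse, with normalised counts (CPM, counts scaled by TMM to a common library total) of 5.86 and 2.08 in the WT libraries and 3.41 and 0.411 in those with the Trim24-deficient label, called the mutant-labelled libraries below because Trim24 did not separate them. On this scale 3 counts correspond to 0.606 to 0.639 CPM. The groups overlapped, and the log2 fold change of Trim24 was -1.06 (SE 0.82, adjusted p = 0.635 from the quasi-likelihood fit of edgeR, corrected by Benjamini-Hochberg over all genes tested). Sex-linked transcripts separated the labels: the X inactivation transcript Xist was at 10.9 and 6.46 CPM in WT and at 437 and 256 CPM in the mutant-labelled libraries, and Ddx3y of the Y chromosome at 73.7 and 102 CPM against 0.426 and 0.411 CPM. The study's methods describe the mice as matched for sex. In these libraries genotype label and sex-linked transcripts go together, and their parts cannot be told apart in any comparison below. The macrophage identity of the sort was checked with 12 markers, which summed to 17780 to 20760 FPKM in WT and 20140 to 21450 FPKM in the mutant-labelled libraries. Adgre1, which encodes F4/80, was among them, at 326 to 374 FPKM in the 4 libraries. Lyz2, the gene that drives the Cre, was at 5212, 3504, 7132 and 5346 CPM (log2 fold change 0.52, SE 0.28, adjusted p = 0.481, edgeR), the WT libraries first.

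As background, lysosomal enzymes are made in the endoplasmic reticulum, tagged in the Golgi and delivered to an interior that the vacuolar proton pump keeps acid. The pump has a V1 sector in the cytosol, which burns ATP, and a V0 sector in the membrane, through which protons pass. Many lysosomal genes carry elements near the start site that resemble the palindrome TCACGTGA. The MiT factors TFEB and TFE3 bind such elements and raise lysosome formation when they enter the nucleus. Loss of single enzymes gives the lysosomal storage diseases, and in several of them macrophages fill with undegraded lipid.

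The promoters of the members with the largest differences between labels, and of those with the palindrome, are shown because they bear on whether this shared element and the measured differences go together. Of the 45 genes, 40 had a promoter window in the RefSeq table of GRCm38.p6, running from 250 bases before to 50 bases after an annotated start, with 49 windows in all since 6 genes had several. Asah1, Atp6v1b2, Atp6v0d2, Npc1 and Atp6v1h had none. The motifs searched were the core CACGTG, the longer form TCACGTG on either strand, and the full palindrome TCACGTGA. These nest in each other, and the core and the palindrome read the same on both strands. All sequences are written 5′ to 3′ on the strand of the gene, with each CACGTG or TCACGTGA in capitals, and positions count from the start site with negative numbers before it.

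The palindrome TCACGTGA was found in the windows of Gla, Atp6v0d1, Atp6v1a and Mcoln1, and Gla, α-galactosidase A, held it at 2 places. The stretches that hold it lie at chrX:134601006-134601255 (minus strand) for Gla, at chr8:105566050-105566079 (minus strand, spanning the start site) for Atp6v0d1, at chr16:44139358-44139417 (minus strand) for Atp6v1a and at chr8:3500447-3500506 (plus strand) for Mcoln1.
Gla: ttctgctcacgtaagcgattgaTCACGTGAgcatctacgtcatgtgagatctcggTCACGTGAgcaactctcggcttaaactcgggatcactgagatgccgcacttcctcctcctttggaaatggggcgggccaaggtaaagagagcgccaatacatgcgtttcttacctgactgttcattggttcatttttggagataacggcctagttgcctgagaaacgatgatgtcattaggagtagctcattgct
Atp6v0d1: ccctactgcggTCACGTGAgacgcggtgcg
Atp6v1a: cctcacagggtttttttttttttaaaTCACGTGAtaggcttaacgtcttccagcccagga
Mcoln1: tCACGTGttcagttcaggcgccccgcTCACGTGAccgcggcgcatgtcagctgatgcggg
The central CACGTG began at -227 and -194 in Gla, at -131 in Atp6v1a and at -3 in Atp6v0d1, while Mcoln1 had it at -45 and a shorter match at -71.

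Lamp1, a major glycoprotein of the lysosomal membrane, had 4 copies of CACGTG within 70 bases before its start site, at -61, -45, -28 and -15 (chr8:13159091-13159160, plus strand). It was picked for display after its sequence was seen.
Lamp1: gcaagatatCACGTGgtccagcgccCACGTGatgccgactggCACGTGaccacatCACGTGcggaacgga
Single copies of TCACGTG without the full palindrome were found in the windows of Arsa, Gaa, Glb1, Naglu and Sgsh, which all encode hydrolases, with the central CACGTG at -16, -140, -48, -73 and -29.

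The members with the largest differences between labels, Acp5 and Gm2a, had no CACGTG in their windows. Their promoters are shown beside that of Gla for this reason, Gm2a from chr11:55097735-55097984 (plus strand) and Acp5 from chr9:22130599-22130748 (minus strand, before the most downstream of 3 annotated starts).
Gm2a: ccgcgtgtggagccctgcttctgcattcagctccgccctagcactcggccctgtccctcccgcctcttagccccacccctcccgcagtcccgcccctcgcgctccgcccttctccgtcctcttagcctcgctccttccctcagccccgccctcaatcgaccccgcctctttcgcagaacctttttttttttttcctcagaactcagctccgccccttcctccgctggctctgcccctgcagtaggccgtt
Acp5: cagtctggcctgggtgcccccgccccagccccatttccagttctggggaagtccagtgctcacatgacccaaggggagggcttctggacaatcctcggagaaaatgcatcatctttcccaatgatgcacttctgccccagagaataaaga
The absence of these letters from a window says nothing about which factors bind there.

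CACGTG was found in the windows of 10 of the 40 members (25%), against 12% of the 9100 tested genes with a window and 8.09% of the 27025 genes of the whole table. For TCACGTG the shares were 25% of members, 7.38% of tested genes and 4.29% of the table, and for TCACGTGA they were 10%, 2.32% and 1.12%. The 72 other lysosome genes with a window, from a wider list described below, held CACGTG in 25% and TCACGTGA in 12.5%. The share was 30% among the hydrolases of sugar chains, 25% among the lipid hydrolases and 28.6% among the membrane proteins, while none of the windows of Grn, Tpp1, Acp2, Acp5, Tfeb, Tfe3 and Atp6ap1 held it. The median log2 fold change between the labels was 0.12 over the 10 members with CACGTG, 8 of them above 0, and 0.10 over the 30 members with a window and no CACGTG, 20 of them above 0. These are descriptions of letters in a short window and not of binding.

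The level of each gene was read from FPKM, the number of fragments scaled to transcript length and library size, which allows genes of different length to be set side by side. In WT TAMs the median of the 45 genes was 54.0 FPKM, against 10.3 FPKM over the 11302 genes tested, and the range ran from 5.19 FPKM (Atp6v0d2) to 1478 FPKM (Cd68). The 4 highest were Cd68, Grn, Atp6v0c and Psap. FPKM values below are given in the order WT replicate 1, WT replicate 2, and then mutant-labelled replicates 1 and 2.

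**Figure D1:**
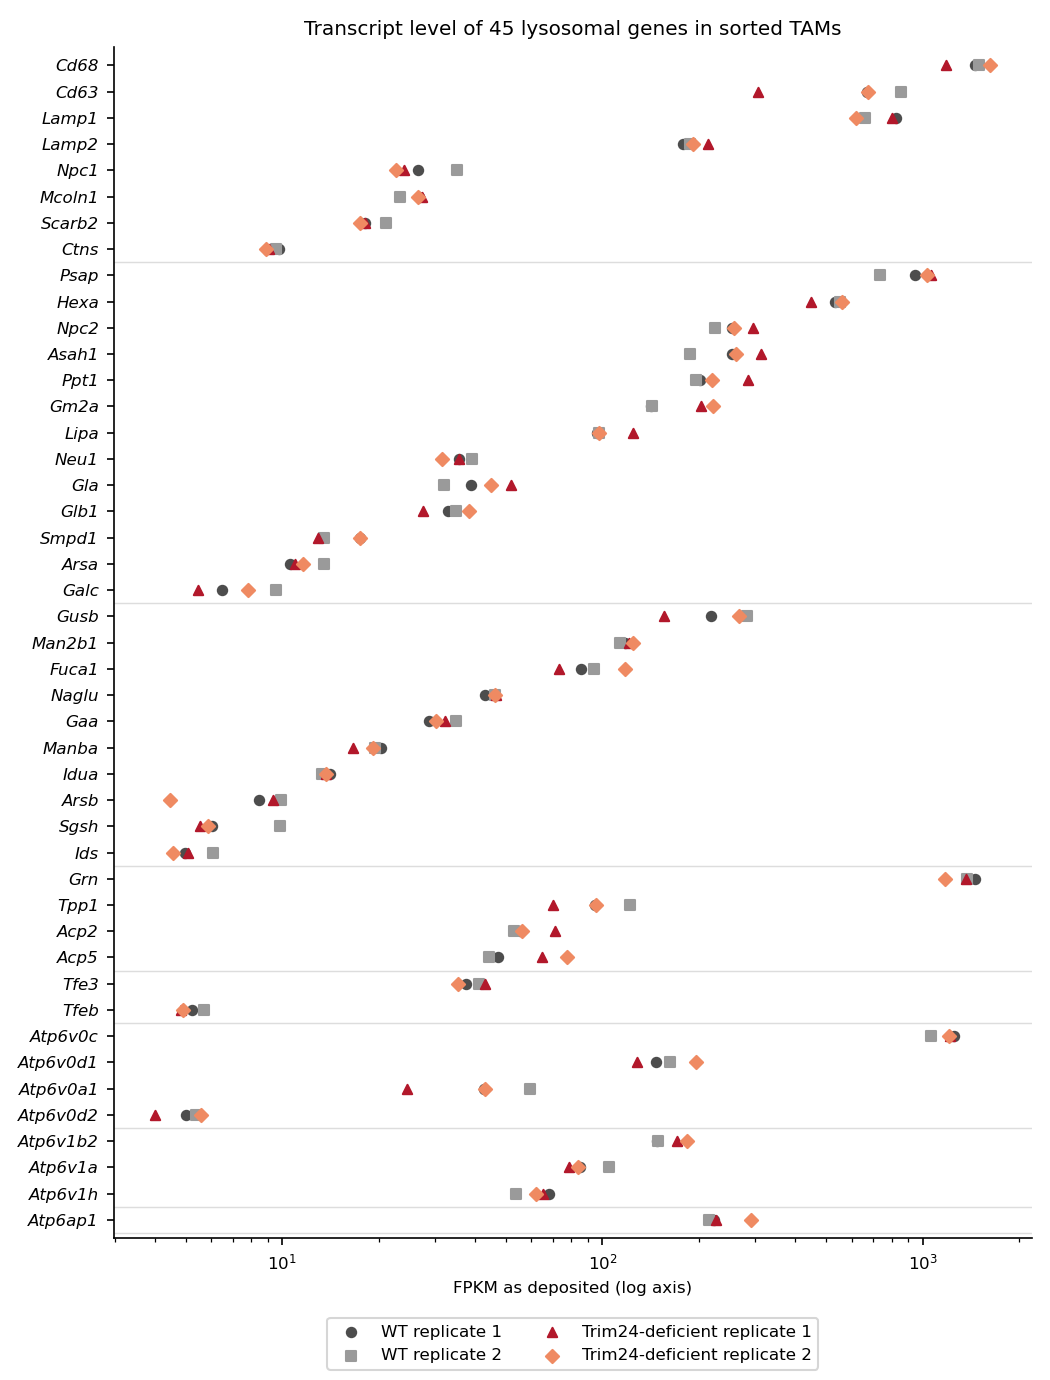
FPKM as deposited (log axis) of the 45 lysosomal genes in the 4 libraries, grouped from top to bottom into membrane proteins, lipid hydrolases, sugar-chain hydrolases, other luminal proteins, transcription factors, V0 subunits, V1 subunits and the accessory subunit. The genes spread from about 5 FPKM to 1627 FPKM, and for most of them the 4 libraries lie close together beside that range, with Cd63 in mutant-labelled replicate 1 as a visible exception.

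Among the membrane proteins, Cd68, a heavily glycosylated macrophage protein of late endosomes, was the most abundant, at 1459, 1496, 1184 and 1627 FPKM. Lamp1 was at 828, 663, 802 and 619 FPKM and its relative Lamp2, which also serves chaperone-mediated autophagy, at 178, 188, 213 and 191 FPKM. The libraries of each label differed more in Lamp1 than the label means, which were 745 and 711 FPKM. Cd63, a tetraspanin of late endosomes and exosomes, was at 672, 853, 306 and 673 FPKM, so that a single library, mutant-labelled replicate 1, lay far below the other 3.

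The 4 remaining membrane members were far less abundant. Npc1, which exports cholesterol from the lysosome together with the soluble Npc2, was at 26.4, 35.0, 23.9 and 22.7 FPKM. Mcoln1, the TRPML1 calcium channel, was at 26.8, 23.4, 27.3 and 26.6 FPKM. Scarb2, which carries the enzyme β-glucocerebrosidase to lysosomes, was at 18.2, 21.1, 18.1 and 17.47 FPKM. Ctns, the cystine exporter that is lost in cystinosis, was at 9.77, 9.57, 9.11 and 8.91 FPKM, near the median of all tested genes.

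The lipid hydrolases and their activators were led by Psap, the precursor of the saposins that present sphingolipids to their enzymes, at 947, 739, 1066 and 1031 FPKM. Hexa, the α subunit of the β-hexosaminidase that trims GM2 ganglioside, was at 532, 554, 447 and 560 FPKM, and the Npc2 cholesterol carrier at 253, 225, 294 and 257 FPKM. The spread of Hexa within the mutant-labelled libraries covered the whole of the WT range. Asah1, acid ceramidase, was at 255, 187, 313 and 262 FPKM, Ppt1, which removes palmitate from proteins, at 201, 196, 285 and 220 FPKM, and Gm2a, the activator that lifts GM2 ganglioside out of the membrane for hexosaminidase, at 142, 143, 203 and 221 FPKM.

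Lipa, the acid lipase that splits cholesteryl esters, followed at 96.2, 97.9, 124 and 97.6 FPKM. Neu1 (sialidase), Gla and Glb1 (β-galactosidase) formed a middle tier with WT means of 37.4, 35.4 and 33.9 FPKM, which did not differ beyond the spread between libraries. Smpd1 (acid sphingomyelinase), Arsa (arylsulfatase A) and Galc (galactocerebrosidase) were the lowest, with WT means of 15.5, 12.04 and 8.01 FPKM. Galc was also variable within labels, at 6.49 and 9.53 FPKM in WT and 5.47 and 7.79 FPKM in the mutant-labelled libraries.

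The hydrolases of sugar chains spanned 5.51 to 250 FPKM as WT means. Gusb, β-glucuronidase, was the highest at 218, 282, 156 and 267 FPKM, followed by Man2b1, the lysosomal α-mannosidase, at 117, 114, 121 and 125 FPKM and Fuca1, the α-fucosidase, at 86.0, 94.3, 73.0 and 117 FPKM. Gusb and Fuca1 were each lowest in mutant-labelled replicate 1. Naglu, Gaa, Manba and Idua, which act on heparan sulfate, glycogen, β-mannosides and iduronate in turn, had WT means of 44.6, 31.7, 19.9 and 13.7 FPKM. Arsb, Sgsh and Ids, sulfatases of glycosaminoglycan breakdown, were lowest with WT means of 9.17, 7.91 and 5.51 FPKM.

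Within heparan sulfate breakdown, the glucosaminidase Naglu exceeded the sulfatases Sgsh and Ids in each of the 4 libraries. The values were 43.0, 46.3, 46.6 and 46.0 FPKM for Naglu, 6.02, 9.80, 5.53 and 5.87 FPKM for Sgsh and 4.97, 6.05, 5.07 and 4.55 FPKM for Ids.

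Of the other luminal proteins, Grn, the precursor of the granulins, had the second highest WT mean of the members after Cd68, at 1463, 1381, 1368 and 1172 FPKM, and lay above Cd68 in replicate 1 of each label. Tpp1, a tripeptidyl peptidase, was at 94.6, 122, 69.9 and 95.4 FPKM. The acid phosphatases Acp2 and Acp5 (tartrate-resistant acid phosphatase, a marker of osteoclasts and some macrophages) had WT means of 54.0 and 45.8 FPKM.

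The 2 transcription factors differed in level. Tfe3 was at 37.5, 41.0, 43.0 and 35.5 FPKM and Tfeb at 5.21, 5.71, 4.81 and 4.89 FPKM. Within the summed FPKM of the MiT genes Tfeb, Tfe3, Mitf and Tfec, Tfe3 took 55.3%, 56.8%, 70.3% and 58.0% and Tfeb 7.68%, 7.90%, 7.87% and 7.99%. Tfe3 transcript was therefore several times that of Tfeb in every library. RNA levels do not report where the proteins sit in the cell.

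The proton pump members covered both sectors. Atp6v0c, which forms most of the rotating ring of V0 and is present in several copies per pump, was at 1254, 1062, 1214 and 1212 FPKM, above the other V0 members in every library. Processed copies of Atp6v0c exist in the mouse genome, so reads that RSEM divides between near-identical copies leave its exact level uncertain. Atp6v0d1, the widely expressed d subunit, was at 147, 162, 128 and 195 FPKM. Atp6v0a1, an isoform of the a subunit, was at 42.8, 59.4, 24.6 and 42.9 FPKM. Atp6v0d2, the d isoform best known from osteoclasts, was at 5.0, 5.38, 4.01 and 5.57 FPKM.

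In the V1 sector, the catalytic A subunit Atp6v1a was at 85.0, 105, 78.3 and 84.1 FPKM and its B partner Atp6v1b2 at 148, 149, 171 and 184 FPKM. Atp6v1h, which couples V1 to V0, was at 67.9, 53.6, 65.2 and 62.0 FPKM. Atp6ap1, an accessory subunit needed for assembly, was at 222, 215, 226 and 291 FPKM.

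Isoform use was described with the 3 a subunits, of which Atp6v0a1 is a member of the list and Atp6v0a2 and Tcirg1 (a3) are not. Tcirg1 took 72.4%, 61.8%, 77.7% and 66.9% of their summed FPKM, Atp6v0a1 20.7%, 30.2%, 12.2% and 23.5%, and Atp6v0a2 6.92%, 7.98%, 10.1% and 9.56%. The a3 isoform of lysosomes and osteoclasts was the main a transcript in each library. Atp6v0d2 took 3.28%, 3.21%, 3.04% and 2.77% of the d subunits. None of these shares could pass an exact two-sided permutation test, since 2 libraries against 2 allow no p below 0.333: the share of Atp6v0a2 reached p = 0.333 and those of Atp6v0a1 and Tcirg1 p = 0.667 in that exact test.

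**Figure D2:**
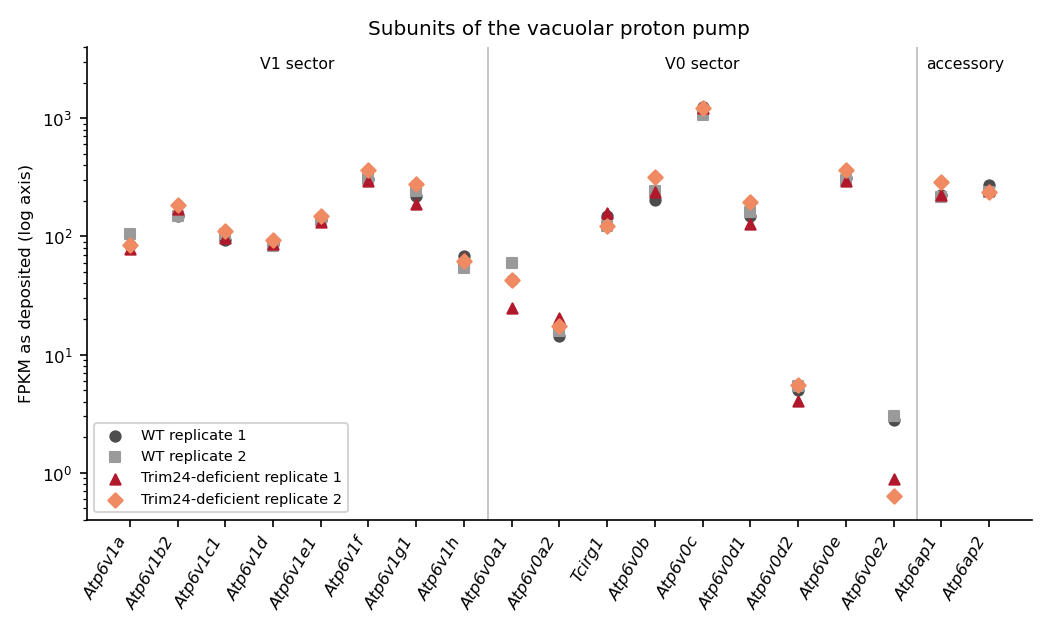
FPKM as deposited (log axis) of 19 subunit genes of the vacuolar proton pump in the 4 libraries, with the V1 sector on the left, the V0 sector in the middle and the accessory subunits on the right. Atp6v0c stands highest at 1062 to 1254 FPKM, most subunits lie near 100 FPKM or above, and Atp6v0a2, Atp6v0d2 and Atp6v0e2 lie below the rest.

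The question of the comparison was how TAMs of mice labelled Trim24-deficient differ from those of WT mice in these genes. In edgeR's quasi-likelihood test over 11302 genes, none of the 45 passed the study's thresholds, which are an FDR of 0.05 and a 1.5-fold change. In all, 42 genes did so (0.372%). At an unadjusted p under 0.05, 4 members were higher in the mutant-labelled libraries, namely Acp5, Gm2a, Gla and Ppt1, which is 8.89% of the members against 6.58% of all tested genes. In the other direction there were 0 members, against 5.62% of all tested genes. DESeq2 called 1 member (2.22%), Gm2a, where it called 156 of all genes (1.38%). Leaving out a library changed the calls: without mutant-labelled replicate 1 Acp5 and Gm2a were called among 405 genes (3.46% of those tested), and without replicate 2 Cd63, Atp6v0a1 and Gla among 652 (5.54%), where the lone library of the label is assumed to vary like the WT libraries.

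Small differences leaned to one side. Of the 45 members, 32 had a log2 fold change above 0 and 13 below, a share of 71.1% against 49.4% of all genes tested. The median log2 fold change was 0.11 over the members and -0.01 over all tested genes, and the members ranged from -0.48 (Cd63) to 0.79 (Acp5). Without mutant-labelled replicate 1 the median of the members was 0.21. For 41 of the 45 (91.1%) the log2 fold change was within 0.5 of 0, compared with 77.5% of all genes tested. Both mutant-labelled libraries lay above both WT libraries for 18 members (40%), where this held for 21.4% of all tested genes. They lay below both for 1 member (2.22%), Npc1, where this held for 23% of all tested genes.

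This lean depended on how the libraries were scaled. With TMM, which assumes that most genes do not change, the split was 18 higher and 1 lower, and upper-quartile scaling gave the same counts. With library totals alone it was 12 higher and 10 lower, beside 12.3% and 35.5% of all genes, and with FPKM as deposited it was 12 and 9, beside 12.3% and 35.3%. Library totals moved the median of all tested genes to -0.15 and that of the members to -0.03, so that the members' median stayed 0.12 above that of all genes, as it was with TMM (0.12). This distance itself varied, from 0.08 without WT replicate 2 to 0.24 without mutant-labelled replicate 1, and was 0.06 with limma on FPKM over all genes. The members' direction against 0 was set by the scaling.

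**Figure D3:**
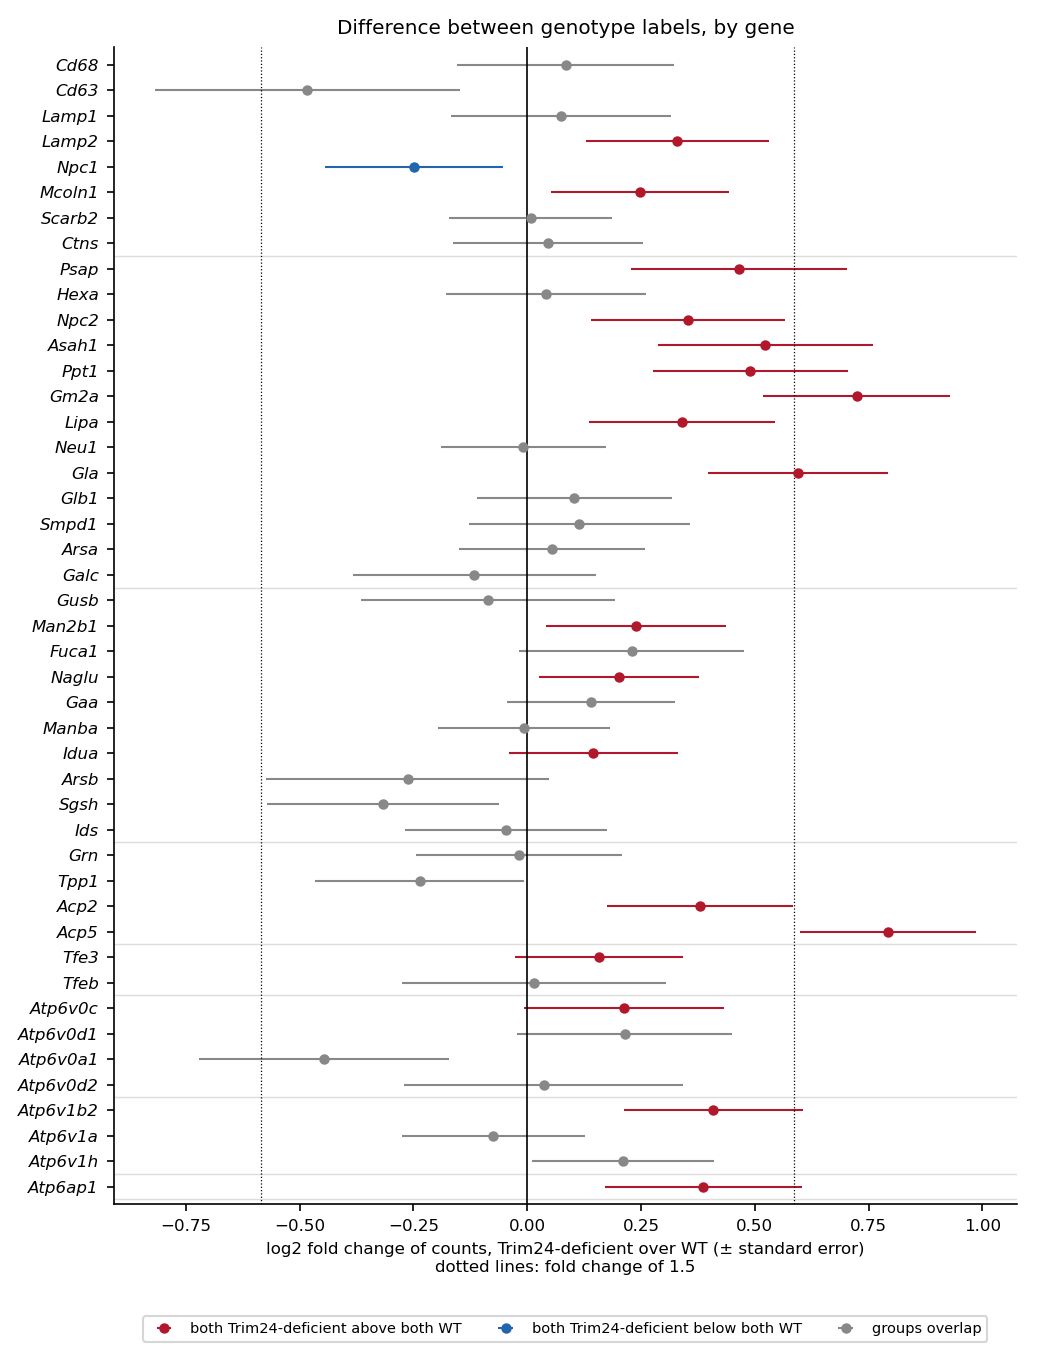
Log2 fold change of counts (mutant-labelled libraries over WT, edgeR with TMM scaling) with its standard error for each of the 45 genes, n = 2 libraries per label. Red marks the 18 genes with both mutant-labelled libraries above both WT libraries, blue the single gene with both below (Npc1) and grey the genes whose groups overlap; dotted lines mark a fold change of 1.5, which only Acp5, Gm2a and Gla exceed.

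The lipid hydrolases and their activators, listed together with the cholesterol carrier Npc2, had the highest median log2 fold change among the groups of several genes. Of the 13, 11 had a log2 fold change above 0, the median was 0.34, and 7 had no overlap between labels: Psap, Npc2, Asah1, Ppt1, Gm2a, Lipa and Gla. Over all tested genes 49.4% were above 0 and 21.4% were higher without overlap, and with library totals 7 of the 13 were above 0 with a median of 0.19. None of them was called, and with FPKM as deposited the groups of Lipa overlapped. The summed level was 2568 and 2283 FPKM in WT and 2878 and 2800 FPKM in the mutant-labelled libraries. Both mutant sums were above both WT sums, and the exact two-sided permutation test gave p = 0.333, the smallest that 2 against 2 allows. The other 6 members of the group (Hexa, Neu1, Glb1, Smpd1, Arsa and Galc) overlapped between labels, with log2 fold changes from -0.12 to 0.11.

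Gm2a (chr11:55097985-55113029, plus strand, 4 exons) was at 596 and 573 CPM in WT and at 918 and 1014 CPM in the mutant-labelled libraries. The WT values were close to each other and well apart from the mutant values. The log2 fold change was 0.72 (SE 0.21), with an unadjusted p of 0.00599. The adjusted p = 0.210 of edgeR did not pass, although 2 of 2 libraries of the label showed the difference. Hexa, a subunit of the enzyme that Gm2a serves, was at 967, 964, 874 and 1112 CPM with a log2 fold change of 0.04.

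Gla (chrX:134588169-134601005, minus strand, 7 exons) was at 115 and 91.3 CPM in WT and at 166 and 146 CPM in the mutant-labelled libraries. The 2 groups did not overlap, and the log2 fold change was 0.59 (SE 0.20, adjusted p = 0.267, edgeR). Glb1, whose enzyme removes β-linked galactose, was at 76.7, 78.1, 68.2 and 98.2 CPM, with groups that overlapped.

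Asah1 (chr8:41340646-41397644, minus strand, 14 exons) was at 564 and 397 CPM in WT and 747 and 634 CPM in the mutant-labelled libraries. The gap between the nearest values of the 2 labels was smaller than the gap between the WT libraries, and the log2 fold change was 0.52 (SE 0.24, adjusted p = 0.413, edgeR). Ppt1 (chr4:122836077-122859175, plus strand, 9 exons), named after its values were seen because it has an unadjusted p under 0.05, was at 491 and 459 CPM against 748 and 586 CPM. Its log2 fold change was 0.49 (SE 0.21, adjusted p = 0.407, edgeR).

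Among the other luminal proteins, Acp5 (chr9:22126727-22135746, minus strand, 6 exons) had the largest difference of all 45 genes. It was at 62.8 and 56.9 CPM in WT and at 93.1 and 114 CPM in the mutant-labelled libraries. The labels were further apart than the libraries within either label, and the log2 fold change was 0.79 (SE 0.19, adjusted p = 0.155, edgeR). The related phosphatase Acp2 was at 254, 233, 353 and 282 CPM with a log2 fold change of 0.38, also without overlap. Grn was at 3361, 3039, 3382 and 2941 CPM, with a log2 fold change of -0.02 (SE 0.23, adjusted p = 0.986, edgeR), and Tpp1 overlapped as well.

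**Figure D4:**
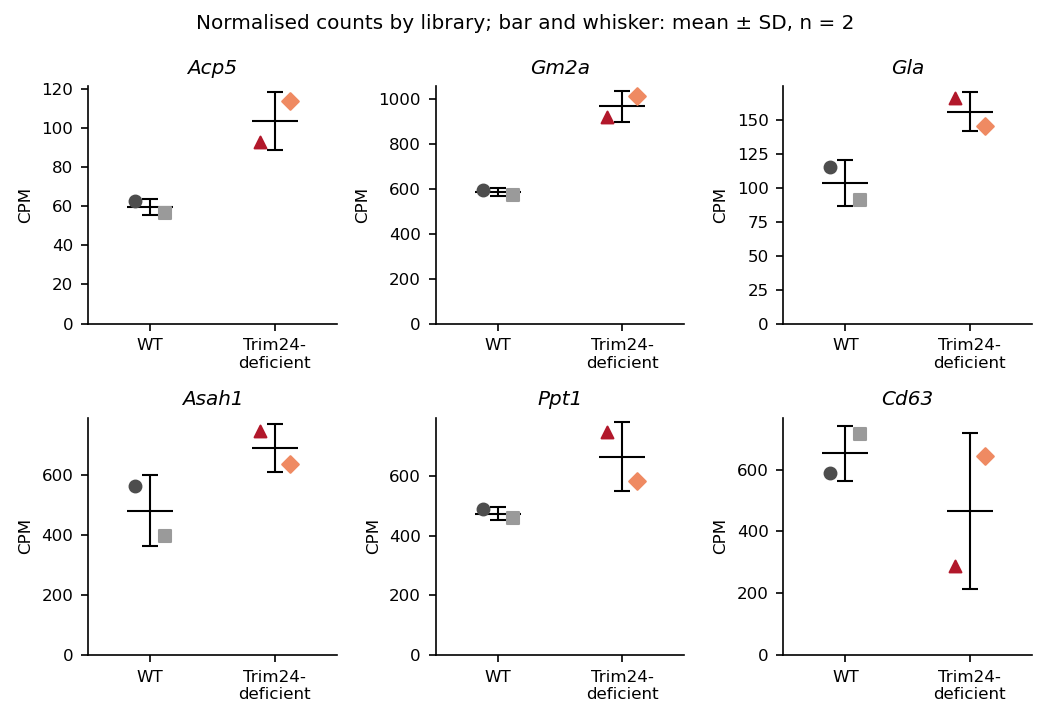
Normalised counts (CPM, axes from 0) of Acp5, Gm2a, Gla, Asah1, Ppt1 and Cd63 in each library, with the mean and SD of the 2 libraries of a label as line and whisker (circles and squares, WT replicates 1 and 2; triangles and diamonds, mutant-labelled replicates 1 and 2). For Acp5, Gm2a, Gla, Asah1 and Ppt1 both mutant points lie above both WT points, while for Cd63 only mutant-labelled replicate 1, at 289 CPM, lies below WT.

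The hydrolases of sugar chains showed no lean with TMM, with 5 members above 0 and 5 below and a median log2 fold change of 0.07. With library totals 3 were above 0 and 7 below, with a median of -0.08. With the length trend removed 7 were above 0 and 3 below, with a median of 0.13. Man2b1, Naglu and Idua were higher without overlap between labels, as were 21.4% of all tested genes. These 3 had log2 fold changes of 0.24, 0.20 and 0.15, and with FPKM as deposited Naglu and Idua overlapped. Their libraries were close together: Naglu was at 105 and 109 CPM in WT and at 123 and 123 CPM in the mutant-labelled libraries. The summed level of the 10 genes was 546, 630, 479 and 633 FPKM, and the exact permutation test gave p = 1.

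Among the membrane proteins, 6 of 8 had a log2 fold change above 0, with a median of 0.06, while with library totals 2 of 8 were above 0 and the median was -0.09. Their sums were 4994, 4692, 4737 and 5204 CPM (p = 0.667 in the exact permutation test), and 3218, 3289, 2584 and 3187 FPKM (p = 0.333, exact permutation test). Lamp2 and Mcoln1 were higher without overlap (Mcoln1 overlapped with FPKM as deposited), and Npc1 was lower without overlap, at 136 and 172 CPM in WT and 132 and 127 CPM in the mutant-labelled libraries (log2 fold change -0.25, SE 0.20, adjusted p = 0.639, edgeR). For Npc1 the gap between the nearest values of the 2 labels was smaller than the gap between the WT libraries. The partner Npc2 was higher without overlap, at 815, 693, 1021 and 904 CPM. Cd68, with the highest FPKM of the members, was at 1749, 1720, 1541 and 2137 CPM, and its log2 fold change of 0.08 (SE 0.24, adjusted p = 0.919, edgeR) turned below 0 with library totals or FPKM.

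Cd63 differed between the 2 libraries of one label by more than between labels, at 589 and 716 CPM in WT and at 289 and 645 CPM in the mutant-labelled libraries (log2 fold change -0.48, SE 0.34, adjusted p = 0.592, edgeR). Without mutant-labelled replicate 2, the log2 fold change was -1.17 and the gene was called, so that this call rests on a single library. Atp6v0a1 went the same way, at 169, 223, 104 and 183 CPM, with a log2 fold change of -0.45 with all libraries and -0.91 and a call without that replicate.

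Of the 8 proton pump members, 6 were above 0, beside 49.4% of all tested genes, with a median log2 fold change of 0.21. With library totals 2 of the 4 V0 members, 2 of the 3 V1 members and the accessory subunit were above 0. The V0 median was then -0.03. Atp6v0c, Atp6v1b2 and Atp6ap1 were higher without overlap, as were 21.4% of all tested genes. Atp6v0c was at 1389, 1126, 1448 and 1467 CPM (log2 fold change 0.21, SE 0.22, adjusted p = 0.738, edgeR), and its WT libraries were further apart than the nearest values of the 2 labels. With FPKM as deposited its groups overlapped. Atp6v1b2 was at 397, 384, 496 and 541 CPM, further apart between labels than within them, with a log2 fold change of 0.41 (SE 0.20, adjusted p = 0.434, edgeR). The pump members summed to 3141, 2925, 3264 and 3714 CPM, with both mutant-labelled sums above both WT sums (p = 0.333, exact permutation test), and to 1972, 1811, 1911 and 2077 FPKM, where the labels overlapped (p = 0.667, exact permutation test).

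The transcription factors of this network were not called. Tfeb was at 11.7, 12.3, 11.9 and 12.3 CPM (log2 fold change 0.02, SE 0.29, adjusted p = 0.988, edgeR) and Tfe3 at 111, 116, 137 and 116 CPM (log2 fold change 0.16, SE 0.18, adjusted p = 0.779, edgeR). The sign of both changed when FPKM was tested in place of scaled counts. The 2 mutant-labelled libraries were further apart for Tfe3 than the WT libraries.

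The 5 members on chromosome X were read apart because the labels also differed in sex-linked transcripts. Lamp2, Gla, Atp6ap1 and Tfe3 had no overlap and were higher in the mutant-labelled libraries, and Ids overlapped. Tfe3 overlapped too with FPKM as deposited. Lamp2 was at 542, 529, 706 and 639 CPM (log2 fold change 0.33, SE 0.20, adjusted p = 0.542, edgeR), Atp6ap1 at 476, 441, 519 and 679 CPM (0.39, SE 0.22, adjusted p = 0.501, edgeR) and Ids at 24.4, 28.5, 26.8 and 24.5 CPM (-0.05, SE 0.22, adjusted p = 0.953, edgeR). The median log2 fold change was 0.33 over these 5 and 0.09 over the 40 autosomal members, while the 356 tested genes on chromosome X had a median of -0.07. Of the autosomal members 28 were above 0, and 14 were higher without overlap, beside 21.4% of all tested genes.

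The summed level of all 45 genes depended on the scale. With TMM the sums were 20510 and 18890 CPM in WT and 22020 and 22770 CPM in the mutant-labelled libraries, without overlap and with p = 0.333 in the exact permutation test, the smallest possible. As deposited the sums overlapped, at 10010, 9661, 9474 and 10140 FPKM, with p = 1 in the exact permutation test, and the members took 2.11%, 2.03%, 2.10% and 2.14% of the expected counts. The exact permutation test of that share gave p = 0.667. As bulk samples, these libraries cannot tell fewer cells with a transcript from less transcript per cell.

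The spread between libraries of a label was small for most members, and larger in the mutant-labelled libraries. The median fold between replicates was 1.11 in WT and 1.15 in the mutant-labelled libraries, against 1.17 and 1.24 over all tested genes. In WT, 1 member (2.22%) exceeded 1.5-fold, Sgsh with 1.56-fold, against 15.6% of all tested genes. In the mutant-labelled libraries, 6 (13.3%) did so, against 23.3% of all tested genes. These were Cd63 (2.23-fold), Arsb (2.07-fold), Atp6v0a1 (1.75-fold), Gusb (1.74-fold), Fuca1 (1.63-fold) and Atp6v0d1 (1.55-fold). Arsb was lower in replicate 2 and the other 5 were lower in replicate 1.

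**Figure D5:**
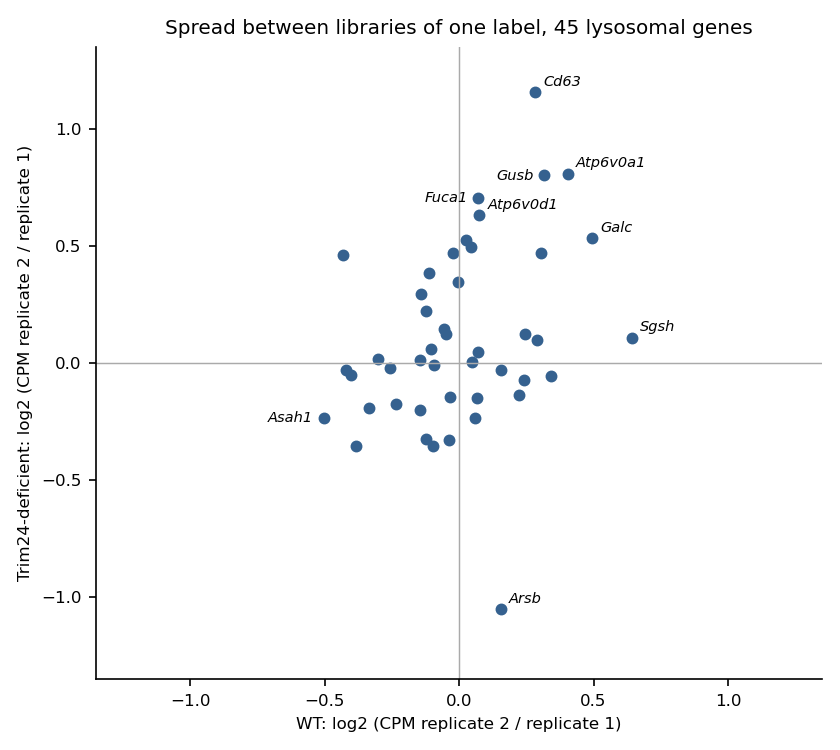
Log2 ratio of CPM between replicate 2 and replicate 1 of the WT libraries (horizontal axis) and of the mutant-labelled libraries (vertical axis) for each of the 45 genes. Most genes lie within 0.5 of 0 on both axes, Cd63 lies highest and Arsb lowest on the vertical axis, and Sgsh lies farthest along the horizontal axis.

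Marker transcripts of other cell types also differed between the labels. The 7 monocyte markers summed to 523 and 559 FPKM in WT and to 1607 and 932 FPKM in the mutant-labelled libraries, with 7 of 7 above 0 and a median log2 fold change of 1.08. The 10 neutrophil markers summed to 111 and 122 FPKM against 188 and 469 FPKM, with Mpo and Elane at 0 in every library. S100a8 alone was at 49.1 and 46.1 FPKM in WT and 92.3 and 305 FPKM in the mutant-labelled libraries. Only 4 of these markers were tested and 0 called, with 3 above 0 and Cxcr2 at a log2 fold change of -0.30. The 7 melanoma markers summed to 268 and 253 FPKM against 160 and 220 FPKM, with the lowest sum in the library in which Cd63 was lowest, and 1 of them had a log2 fold change above 0. The 12 macrophage markers had a median log2 fold change of 0.25 and 11 of 12 above 0, and Cd68 is on that list too. T and NK cell markers overlapped between labels, at 102 and 58.3 FPKM against 177 and 44.3 FPKM, and the dendritic cell, B cell, endothelial and fibroblast lists each summed to at most 45.7 FPKM in any library. The part of these cell types in the differences of the lysosomal genes was not tested.

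Differences between labels also went with transcript length: Spearman's rho of log2 fold change and length was -0.25 over the 11302 genes tested and -0.26 over the 45 members. These are correlations across genes, which are not independent replicates. The members had a median length of 2991 bases, near the 2810 bases of all tested genes. With the length trend removed, rho was -0.03 over the members and their median log2 fold change was 0.12.

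A wider list of 95 other lysosome genes, of which 90 were tested, had 0 genes called. The median log2 fold change was 0.14, with 58 above 0 (64.4%, beside 49.4% of all tested genes). In edgeR's test 9 were higher and 4 lower at an unadjusted p under 0.05, beside 6.58% and 5.62% of all tested genes. Without overlap between labels, 28 were higher and 15 lower, beside 21.4% and 23% of all tested genes. Among 12 other tested pump subunits, 10 were above 0 with a median of 0.21. With library totals 9 were above 0 and the median was 0.06. Atp6v0a2 was at 75.7, 79.4, 116 and 101 CPM (log2 fold change 0.48, SE 0.18, adjusted p = 0.336, edgeR) and Atp6v0b at 192, 220, 243 and 329 CPM (0.47, SE 0.22, adjusted p = 0.418, edgeR).

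The 20 other hydrolases and cofactors had a median log2 fold change of 0.20, with 15 above 0, beside 49.4% of all tested genes. Library totals gave 11 above 0 and a median of 0.05. Naaa, an acid amidase of the same family as Asah1, was at 342, 180, 599 and 398 CPM (log2 fold change 0.93, SE 0.32, adjusted p = 0.280, edgeR). Smpdl3a, a phosphodiesterase related to Smpd1, was at 96.1, 77.1, 162 and 133 CPM (0.77, SE 0.20, adjusted p = 0.187, edgeR), while Smpd1 itself was at 41.6, 30.8, 33.0 and 45.4 CPM. Naaa and Smpdl3a did not overlap between labels, and neither was called.

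The 22 other membrane proteins had a median of 0.24, with 16 above 0, beside 49.4% of all tested genes. Library totals gave 14 above 0 and a median of 0.09. Slc11a1, the metal transporter of phagosomes, was at 631, 440, 1035 and 713 CPM (log2 fold change 0.71, SE 0.26, adjusted p = 0.326, edgeR), and the cation channel gene Tpcn1 was at 21.8, 37.9, 14.1 and 21.4 CPM (-0.75, SE 0.32, adjusted p = 0.394, edgeR). The 18 genes of enzyme delivery were balanced with TMM, with 10 above 0 and a median of 0.01. With library totals 5 were above 0 and the median was -0.14. Sort1, a sorting receptor, was at 17.8, 20.4, 13.6 and 10.7 CPM (-0.65, SE 0.28, adjusted p = 0.395, edgeR), and the retromer gene Vps29 was at 159, 154, 163 and 227 CPM (0.31, SE 0.21, adjusted p = 0.582, edgeR).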

How the data were processed

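RNA of sorted TAMs was sequenced by the authors in 2 WT libraries and 2 libraries labelled Trim24-deficient (mutant-labelled). According to the paper and the submitters' processing notes, Bowtie was run by the authors against GRCm38/mm10 and RSEM then quantified each gene (versions not given in the sources used here). The authors deposited for each library the expected count of every gene, not normalized, the FPKM, scaled to transcript length and library, and the transcript length.

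Expected counts were rounded to whole numbers (77.1% were whole as deposited), since edgeR models whole counts. Low genes were removed with filterByExpr of edgeR 4.0.16 under R 4.3.3 (11302 of 16739 genes were kept, among them all 45 members). Libraries were scaled by TMM (factors 0.943 to 1.08), and labels were compared by glmQLFit with glmQLFTest. P-values were adjusted over all genes tested by Benjamini-Hochberg, and a call needed FDR < 0.05 with a change of over 1.5-fold, as in the study's methods. SE is the log2 fold change over the square root of F. FPKM was used for levels between genes, sums and shares. Labels were compared on FPKM in overlap counts, in exact permutation tests of FPKM sums and shares, in the marker sums and in the limma alternatives. Exact permutation tests were two-sided over the 4 libraries. Totals of 4476122 to 5172407 counts limit the precision of sparse genes.

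Alternatives were a replicate block, DESeq2 1.42.0, other scalings and filters, limma 3.58.1 for log2 FPKM after adding a pseudocount of 1 or 0.1 (genes reaching 1 FPKM in 2 libraries, or all genes), a robust fit, removal of the length trend, and each library left out. Overlap counts under other scalings were added after seeing the data. The fits were tested on simulated data in which 200 genes changed 4-fold. No member differed by that much, so this test does not cover changes of the size seen here. The members and all lists were chosen with earlier results of these data known. Statistics are printed for members called, members without overlap and an absolute log2 fold change of at least 0.5, members on chromosome X, Tfeb, Tfe3 and the 3 members with the highest FPKM, and in each other list for the 2 genes with the largest difference at a mean log2 CPM of at least 3. Values of Ppt1, Cd63, Npc1, Atp6v0a1 and Atp6v1b2 were added after they were seen. Promoter windows were matched by Entrez gene identifier. Of 49 windows, 35 had their part after the start in a GENCODE transcript of the gene, a check of their strand. Protein sequences were not used here.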

Additional observations from a re-analysis of the deposited data

How the results depend on the processing

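The number of members called was 0 in the test as reported and moved to 2 with the replicate block (Acp5 and Gm2a, adjusted p = 0.00791 and 0.0117) and to 1 with DESeq2 (Gm2a, adjusted p = 0.0438), and leaving out 1 library gave 0 to 3. Over all genes, the count of calls was 42 as reported, 634 with the replicate block, 156 with DESeq2, 23 and 20 with limma on log2(FPKM + 1) and log2(FPKM + 0.1), 0 with limma over all genes (where 3 members had an unadjusted p under 0.05), and 25 to 652 when 1 library was left out. With the replicate block, the 2 of 45 members called thus stand beside 634 of 11302 genes tested. The replicate numbers were not shown to pair the mice: no label says so, there are only 2 pairs, and deviations from the group means of same-numbered libraries correlated at 0.165 across genes. The members' median log2 fold change was 0.11 as reported, -0.0314 with library totals, -0.0333 with limma on log2(FPKM + 1), filtered or over all genes, and -0.0355 with log2(FPKM + 0.1), and it ran from 0.0816 to 0.21 when 1 library was left out. These settings also place the median of all genes below 0, at -0.09 to -0.15.

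Genes near 0 changed sign. Cd68 was at -0.0660 with library totals, at -0.0902 and -0.0903 with FPKM at the larger and smaller pseudocount and at -0.0141 with the length trend removed, and ran from -0.17 to 0.31 when 1 library was left out. Tfeb was at -0.13 with library totals, -0.0412 with upper-quartile scaling, -0.14 and -0.17 with FPKM at the larger and smaller pseudocount and -0.0173 with the length trend removed, and ran from -0.0072 to 0.0502 when 1 library was left out. Tfe3 was at -0.0064 and -0.0066 on FPKM. Ids was at 0.0796 with the length trend removed and ran from -0.14 to 0.0692 when 1 library was left out, and Grn from -0.12 to 0.0816. Acp5 (0.64 to 0.94), Gm2a (0.65 to 0.80), Gla (0.44 to 0.79), Asah1 (0.29 to 0.81), Ppt1 (0.31 to 0.66), Lamp2 (0.26 to 0.40), Atp6ap1 (0.18 to 0.57) and Atp6v0c (0.07 to 0.39) stayed above 0 when 1 library was left out. The causes of these moves were not tested. With 2 libraries per label, no exact test of a single value can pass 0.05.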

Other observations

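Genes of the platform on which the lysosome senses nutrients, the TORC1 and MiT list, had a lower median than the lysosomal genes, without a call. Of 18 tested genes, 7 were higher and 11 lower on the log2 fold change scale, with a median of -0.17 (-0.32 with library totals, where the lysosomal members had -0.03). Both mutant-labelled libraries lay above both WT libraries for 4 and below for 8, where these shares were 21.4% and 23% over all tested genes. The 4 higher ones were Lamtor genes with transcripts of 900 to 1263 bases. Among the lower ones, Mtor has 8612 bases and Rragc, with the largest difference of the list, has 2621 bases. Longer transcripts had lower log2 fold changes over all genes (Spearman's rho -0.25). With the length trend removed, 6 genes of the list were above 0 and 12 below, with a median of -0.07. The part of transcript length in this list was not tested. Rragc, a Rag GTPase that holds TORC1 at the lysosome, was at 59.4 and 71.3 CPM in WT and at 36.2 and 44.4 CPM in the mutant-labelled libraries (log2 fold change -0.70, SE 0.21, adjusted p = 0.221 by edgeR's quasi-likelihood test). Mitf, a relative of Tfeb and Tfe3 that is also expressed in melanocytes, was at 29.3, 33.8, 25.99 and 15.2 CPM (-0.61, SE 0.28, adjusted p = 0.417, edgeR), and the summed melanoma markers were lower in both mutant-labelled libraries as well. The part of melanoma RNA in the Mitf value was not tested.

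Atp6v0e2, a sparse V0 subunit gene singled out after its values were seen, had 25 and 25 counts in WT and 8 and 6 counts in the mutant-labelled libraries (log2 fold change -1.79, SE 0.52, adjusted p = 0.219, edgeR). This was the lowest log2 fold change among the 90 other lysosome genes tested.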
